A study of Mus musculus with 18 samples.

Results

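Loss of Treml4 under a low amount of oxidized low-density lipoprotein (oxLDL) was examined in BMDM, macrophages that M-CSF drives to form from mouse bone marrow in culture. The comparison used 6 of the 18 libraries of the series, taken by their labels. These were 3 libraries from Apoe-/- cells and 3 from Apoe-/-/Treml4-/- double-knockout (DKO) cells, all given oxLDL at 10 µg/ml (oxLDL 10). Both genotypes lack Apoe in every cell, so no library has an intact Apoe gene, and the DKO cells also lack Treml4. The other 12 libraries hold the same genotypes untreated or with oxLDL at 60 µg/ml (oxLDL 60). The series' design text gives 16 h of treatment and the methods give a longer time, while 1 protocol field names LPS, and neither point was resolved. The labels give C57BL6 as the strain and no age. Per the methods, DKO mice were kept as a line of their own after a cross of Treml4-/- with Apoe-/- mice, so differences between the lines at other loci cannot be told apart from loss of Treml4.

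Of the 18668 rows of genes in the table, 12838 reached at least 0.1 RPKM (reads per kilobase of gene, scaled to the reads of the library) in at least 3 of the 18 libraries and were tested. At that limit Capn11 was just inside, with 0.1003 RPKM in the third of its libraries by level, and 4930502E09Rik just outside with 0.09997 RPKM. Differences are DKO minus Apoe-/- on the log2(RPKM + 0.1) scale, from a limma fit to all 18 libraries. Adding 0.1 understates the differences of low genes. A gene was called at a Benjamini-Hochberg adjusted p under 0.05 and a fold change of at least 1.4.

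TREML4 belongs to the TREM receptors of myeloid cells, which signal through adaptors such as DAP12, encoded by Tyrobp, and the kinase SYK. Macrophages take up oxLDL through scavenger receptors and become foam cells. They also recycle iron from engulfed red cells, and ferroportin, encoded by Slc40a1, is the protein by which iron leaves the cell.

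The steps between low RPKM values gave an estimated depth of 37.3 M to 46.1 M reads or read pairs in the 6 libraries, at which 3 reads over 1 kb correspond to 0.0651 to 0.0805 RPKM. All 10 macrophage markers passed the filter, and Csf1r, which encodes the M-CSF receptor, lay between 449 and 560 RPKM in the 6 libraries. The 10 summed to 8769 to 12173 RPKM in Apoe-/- and 7545 to 10315 in DKO. Of their log2 differences 3 lay above 0 and 7 below (30.0% above, against 66.2% of all genes), with a median of -0.01 and 0 called. Genotypes did not overlap in 2 of the 10, with DKO higher. Of the other marker lists, the summed level over the list was at most 0.955 RPKM for lymphocytes, 0.298 for mast cells and basophils and 0.308 for erythroid cells. Neutrophil markers summed to 37.1 to 49.8 RPKM in Apoe-/- and 39.8 to 83.3 in DKO, led by S100a8 and S100a9, with Ly6g at 0 in 4 of the 6. Stromal markers summed to 1.31 to 15.8 RPKM in Apoe-/- and 1.88 to 5.33 in DKO. Dendritic cell markers summed to 148 to 173 RPKM, nearly all of it Bst2, which macrophages also express. Xist stood at 7.25 RPKM in Apoe-/- replicate 2 and 12.8 RPKM in DKO replicate 3 and at most at 0.063 in the other 4, so each genotype held 1 Xist-positive library. The list of 6 sex-linked genes, with Xist and the Y-linked Ddx3y, Eif2s3y and Kdm5d, summed to 7.29 and 12.8 RPKM in these 2 libraries. In the other 4 it summed to 42.6 to 61.1 RPKM. Nearly all of the sum was thus Xist in the Xist-positive libraries, as in female cells, and other genes in the rest, as in male cells. The methods say that mice were matched for age and sex.

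Treml4 (17:48264295-48275360, + strand, mm10) checked the labels first. In Apoe-/- cells it stood at 3.27, 3.61 and 3.08 RPKM in replicates 1 to 3, which are 255, 276 and 229 reads by the step of 1 read. In DKO cells it was at 0 in all 3 libraries. Against a level of 3 reads in each DKO library, it was at least 88.7-fold lower in DKO. The fitted log2 difference was -5.09 (SE 0.16, limma adjusted p = 3.5e-12), a value that the added 0.1 RPKM sets. A two-sided exact permutation test over these 6 libraries gave p = 0.10, the smallest possible with 3 against 3, and it gave the same p for Slc40a1.

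Across all genes 11 were called, 0.0857% of those tested. Of these, 8 were higher in DKO (0.0623%) and 3 lower (0.0234%). With only the 6 libraries compared in the fit, 4 were called, Treml4, Slc40a1, Nnt and G530011O06Rik, so the other 7 calls rest on the spread that all 18 libraries share. Libraries that share a genotype and a number may come from 1 animal, and with that number as a random block 11 genes were called. The median log2 difference of all genes was 0.05. The median gene with at least 1 RPKM had a 95% interval of 0.19 on either side, against 0.48 below 1 RPKM.

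**Figure D1:**
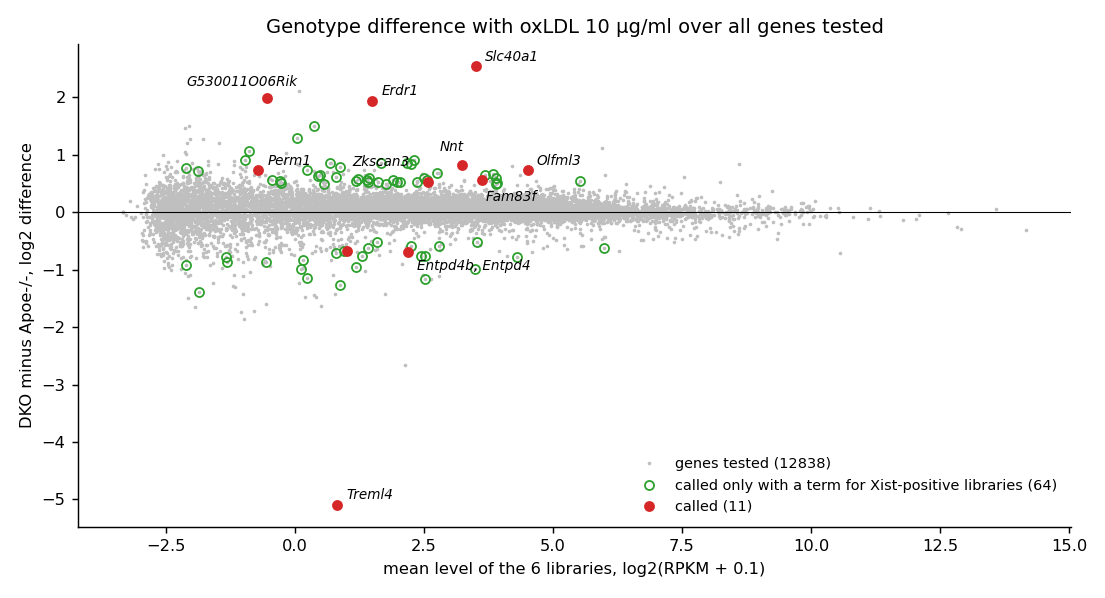
Log2 difference between DKO and Apoe-/- BMDM with oxLDL 10 (vertical) against the mean level over the 6 libraries in log2(RPKM + 0.1) (horizontal), 1 point per gene tested. Filled red points are the 11 called genes and open green circles those called only when a term for Xist-positive libraries is in the fit. Most genes lie close to 0, with Slc40a1 at 2.55 and Treml4 at -5.09.

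Slc40a1 (1:45908068-45926523, - strand), the iron exporter, had the largest increase among called genes. It stood at 3.11, 3.15 and 3.28 RPKM in Apoe-/- and at 19.6, 23.5 and 15.0 RPKM in DKO. The lowest DKO library was above all 3 Apoe-/- libraries, and the ratio of the means was 6.09. The log2 difference was 2.55 (SE 0.15, limma adjusted p = 5.6e-08), and Slc40a1 was called under all 21 alternatives, with adjusted p from 2.8e-10 to 0.045. In bulk RNA more cells that express a gene and more RNA per cell cannot be told apart, here and for the genes that follow.

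As background, iron regulatory proteins bind a hairpin called the iron-responsive element, which near the start of an mRNA holds back its translation and after the coding sequence protects the mRNA. The hairpins of the genes that export, store and import iron are shown because Slc40a1 shares this control with genes whose levels follow. They were read from the GENCODE M21 transcripts, and capitals mark the letters CAGTG of the loop, whose last base follows in lower case.
Slc40a1, 5′ UTR: acttcagctaCAGTGttagctaagtt
Fth1, 5′ UTR: cctgcttcaaCAGTGcttgaacggaa
Ftl1, 5′ UTR: cttgcttcaaCAGTGtttgaacggaa
Tfrc, 3′ UTR, 1 of 4: ttatcgggagCAGTGtcttccataat
The letters CNNNNNCAGTG, searched on the sense strand, occurred in the first 300 bases of the longest coding transcript of 11.4% of 21746 genes, and with all 5 base pairs of the upper stem in 0.092% (20 genes). The match is a description of these transcripts, and RPKM do not measure translation.

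Other genes that handle iron, named here for their roles, were not called in this fit. Fth1, the heavy chain of the iron store ferritin, averaged 3669 ± 183 RPKM in Apoe-/- and 3340 ± 35 in DKO (SD, n = 3), a log2 difference of -0.13 with a 95% interval from -0.35 to 0.08. Ftl1, the light chain, had a difference of 0.06 (interval -0.20 to 0.32). Tfrc, the transferrin receptor that imports iron, had one of 0.17 (interval -0.28 to 0.63). Slc11a2, which moves iron across membranes, had one of -0.02 (interval -0.18 to 0.15), and Hmox1, which releases iron from haem, one of 0.20 (interval -0.11 to 0.52). Of the 27 genes tested in the list for iron and haem, Slc40a1 was the 1 called, 5 had an unadjusted p under 0.05, and the median was 0.02. The next by unadjusted p were Spic, a factor of iron-recycling macrophages, at -0.62 (SE 0.19, limma adjusted p = 0.37), Lcn2, which binds bacterial iron carriers, at 0.52 (SE 0.20, adjusted p = 0.48), and Cd163, the haemoglobin receptor, at -0.51 (SE 0.21, adjusted p = 0.49).

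Nnt (13:119335448-119408997, - strand) encodes the mitochondrial nicotinamide nucleotide transhydrogenase, which makes NADPH, and part of it is deleted in the C57BL/6J substrain. It stood at 6.82, 6.74 and 6.58 RPKM in Apoe-/- and at 11.9, 12.4 and 11.3 in DKO, a narrow spread in both groups with no overlap. The log2 difference was 0.82 (SE 0.07, limma adjusted p = 4.4e-06). RPKM per gene do not show which exons were read. In the list for mitochondrial redox and NADPH, 1 of the 22 genes tested was called, Nnt itself, and the median was 0.03. Mthfd2, a mitochondrial enzyme of folate metabolism, came next at 0.48 (SE 0.17, limma adjusted p = 0.43).

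Entpd4b (14:69555424-69585520, + strand) and Entpd4 (14:69337174-69367270, + strand) encode Golgi enzymes that cleave nucleoside diphosphates. Their longest coding transcripts in GENCODE M21 are identical over all 3589 bases, so the reads of either cannot be told apart from those of the other. Entpd4b stood at 5.78, 5.15 and 5.75 RPKM in Apoe-/- and at 3.47, 3.46 and 3.21 in DKO. Entpd4 stood at 2.47, 2.20 and 2.45 RPKM in Apoe-/- and at 1.48, 1.48 and 1.37 in DKO. In both, every DKO library was below every Apoe-/- library, and the ratio of DKO to Apoe-/- means was 0.608 in each. The log2 differences were -0.70 (SE 0.08, limma adjusted p = 0.0003) for Entpd4b and -0.68 (SE 0.09, adjusted p = 0.0023) for Entpd4. Of 18 nucleotidase and purinergic genes tested these 2 were called, and with shared reads they are not 2 independent calls. Nt5e, which encodes CD73 and makes adenosine, was next at 0.47 (SE 0.13, adjusted p = 0.35), with 0.899 to 1.04 RPKM in Apoe-/- and 1.33 to 1.43 in DKO.

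G530011O06Rik (X:169975043-169978917, - strand), a non-coding RNA gene, and Erdr1 (X:170010526-170018797 in RefSeq, GRCm38.p6) lie 31.6 kb apart in the pseudoautosomal region shared by X and Y. G530011O06Rik stood at 0.124, 0.241 and 0.173 RPKM in Apoe-/- and at 0.973, 1.20 and 0.824 in DKO, higher by 1.98 on the log2 scale (SE 0.24, adjusted p = 0.00084 by limma). Erdr1 stood at 1.18, 1.20 and 0.756 RPKM in Apoe-/- and at 4.39, 2.88 and 5.95 in DKO, higher by 1.94 on the log2 scale (SE 0.25, adjusted p = 0.0015). In both genes all DKO libraries were above all Apoe-/- ones, and Erdr1 was highest in the Xist-positive DKO library. G530011O06Rik lies inside Mid1 on the other strand, and Mid1 also had no overlap, at 0.548 ± 0.112 RPKM in Apoe-/- and 0.959 ± 0.021 in DKO (SD, n = 3), without a call (log2 difference 0.72, SE 0.18, limma adjusted p = 0.28). The labels call the libraries stranded, but how strand was used in counting is not given in the sources used here, so reads of both genes may not be separated.

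The remaining called genes were all higher in DKO by less than 1 on the log2 scale. Olfml3 (3:103722222-103738001, - strand), a secreted glycoprotein of the matrix, stood at 19.1, 15.2 and 16.8 RPKM in Apoe-/- and at 30.1, 27.2 and 27.6 in DKO (log2 difference 0.73, SE 0.09, limma adjusted p = 0.0010). Fam83f (15:80671847-80700425, + strand), of a family of proteins that bind casein kinase, stood at 10.3, 9.62 and 9.77 RPKM and at 16.2, 14.7 and 13.3 (0.56, SE 0.09, adjusted p = 0.0071). It lost its call without DKO replicate 1 (limma adjusted p = 0.082). Groups did not overlap in either gene.

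Perm1 (4:156215868-156221307, + strand), a regulator of muscle mitochondria, was at 0.326, 0.386 and 0.373 RPKM in Apoe-/- and at 0.693, 0.595 and 0.706 in DKO (log2 difference 0.73, SE 0.12, limma adjusted p = 0.016). Zkscan3 (13:21387003-21402755, - strand), a zinc finger repressor of autophagy genes, was at 4.62, 5.40 and 4.39 RPKM in Apoe-/- and at 6.79, 6.82 and 7.13 in DKO (0.52, SE 0.09, adjusted p = 0.018). Groups did not overlap, but these were the least stable calls. Perm1 was called under 12 of its 20 alternatives and Zkscan3 under 11 of 21, and each lost its call without any of 4 or 5 of the 6 libraries, with adjusted p up to 0.127 for Perm1 and up to 0.169 for Zkscan3. Zkscan3 also fell under the fold of 1.4 after both rescalings.

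**Figure D2:**
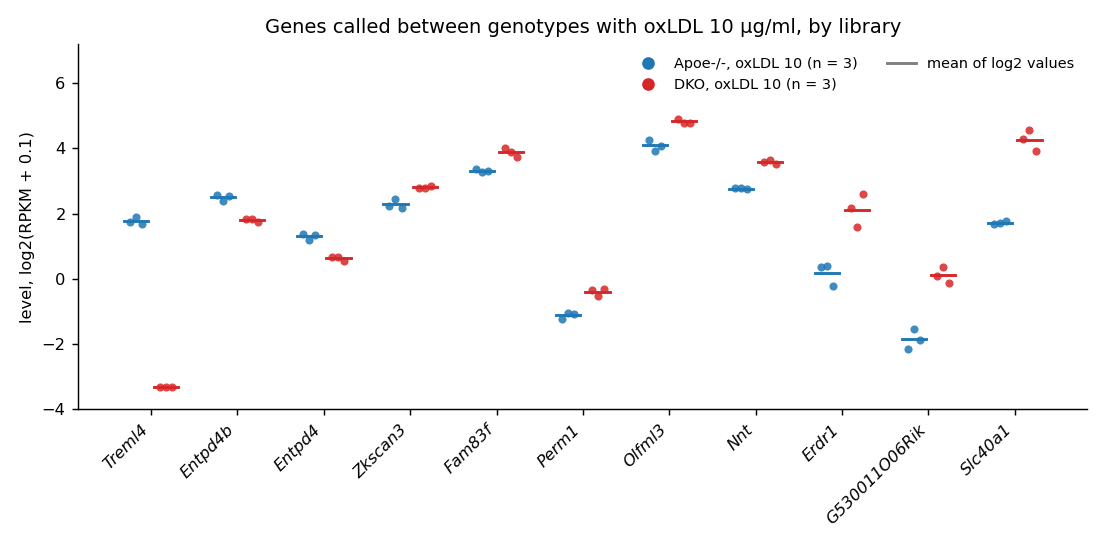
Level in log2(RPKM + 0.1) of each of the 11 called genes in the 3 Apoe-/- (blue) and 3 DKO (red) libraries with oxLDL 10, ordered by difference. Points are libraries and bars the mean of their log2 values. In every called gene the genotypes do not overlap, and the 3 DKO libraries lie at 0 RPKM for Treml4.

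To see whether these differences belong to low oxLDL, the same 11 genes were read at the other treatments, in other libraries that may come from the same animals. All 11 had the same sign untreated and with oxLDL 60. Of these, 10 were called untreated, where 27 of all 12838 genes tested were called. With oxLDL 60 also 10 were called, where 16 of all genes tested were, and 9 were called at all 3 treatments. Perm1 was the exception untreated (log2 difference 0.45, SE 0.12, limma adjusted p = 0.099). Fam83f had 0.65 untreated and 0.47 with oxLDL 60 (SE 0.09 each), the latter an adjusted p of 0.035 but a fold under 1.4. Nnt had 0.82, 0.82 and 0.78 untreated, with oxLDL 10 and with oxLDL 60 (SE 0.07 each).

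The difference of the genotype effect between oxLDL 10 and untreated was tested directly, and limma called 0 genes, with 246 at an unadjusted p under 0.05. It was 0.56 for Slc40a1 (SE 0.21, limma adjusted p = 1.0) and -0.41 for Treml4 (SE 0.22, adjusted p = 1.0). Between oxLDL 60 and oxLDL 10 it also called 0, with 330 at an unadjusted p under 0.05. Treml4 had the value -1.29 there (SE 0.22, limma adjusted p = 0.33). Treml4 is lost in DKO and was at 0 in all 3 DKO libraries with oxLDL 10. Its values in both tests therefore depend on its level in Apoe-/- and on the added 0.1 RPKM. Between oxLDL 60 and oxLDL 10 Treml4 was called with genotype and number as a block (limma adjusted p = 0.026), as was Mir703, named after its value was seen. For Slc40a1 the value was 0.20 (SE 0.21, adjusted p = 1.0). Mean levels of Slc40a1 untreated, with oxLDL 10 and with oxLDL 60 were 1.92, 3.18 and 9.16 RPKM in Apoe-/- and 7.77, 19.4 and 62.0 in DKO, given without a test of the treatment.

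**Figure D3:**
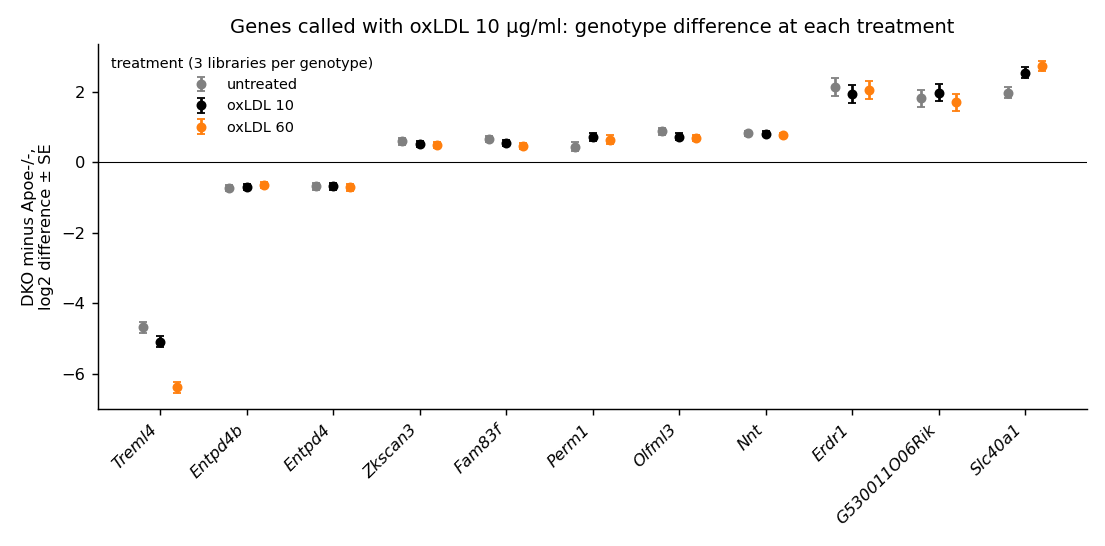
Log2 difference between DKO and Apoe-/- (± SE of the limma fit, 3 libraries per genotype at each treatment) for the 11 genes called with oxLDL 10, at each of the 3 treatments. The sign of each gene is the same at all treatments, and Treml4 runs from -4.69 untreated to -6.39 with oxLDL 60. Since Treml4 is lost in DKO, the size of its difference depends on its level in Apoe-/- and on the added 0.1 RPKM.

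Other members of the TREM family were measured to see whether loss of Treml4 went with changes in them. Of the 9 tested genes in the list of receptors and adaptors, only Treml4 was called. Trem2, the most abundant receptor of the list, stood at 418, 467 and 378 RPKM in Apoe-/- and at 455, 448 and 405 in DKO (log2 difference 0.05, 95% interval -0.14 to 0.24). Tyrobp stood at 953 to 1237 RPKM in Apoe-/- and 977 to 1114 in DKO, with a difference of -0.07 (interval -0.30 to 0.16). Trem1, which amplifies inflammation, was at 1.70 to 2.48 RPKM and 1.72 to 2.25 RPKM. Trem3 was at 1.10 to 1.41 and 1.02 to 1.58, and Treml1 and Treml2 lay under 0.34 RPKM in every library. Hcst, the adaptor DAP10, had -0.24 (SE 0.13, limma adjusted p = 0.54) and Syk 0.05 (SE 0.08). In these 8 genes the genotypes overlapped.

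The neighbourhood of Treml4 on chromosome 17 was read for the same reason. Within 1 Mb of its start 26 other genes were tested, of which limma called 0 and 1 had an unadjusted p under 0.05, and their differences ran from -0.24 to 0.50 with a median of 0.03. The gene with that p was A530064D06Rik, 115 kb away, at 9.58, 8.08 and 9.48 RPKM in Apoe-/- and 7.56, 8.37 and 6.98 in DKO, which overlap. Within 10 Mb 141 genes were tested, with 0 called and 14 at an unadjusted p under 0.05. Libraries of the genotypes did not overlap in 3.55% of them in each direction, against 8.98% higher and 3.12% lower over all genes.

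Apoe, removed in both genotypes, kept some reads. It was at 1.65, 4.13 and 1.75 RPKM in Apoe-/- and at 0.752, 0.674 and 1.39 in DKO, which do not overlap, and the Xist-positive library was the highest of each genotype. The log2 difference was -1.27 (SE 0.40, adjusted p = 0.38 by limma). Once Xist-positive libraries had a term of their own, the difference stayed the same, its SE was 0.13, and Apoe was called (adjusted p = 4.4e-05). Over 21 alternatives it was called in 4, and the adjusted p ran from 3.3e-05 to 0.97. A read in a deleted gene does not show which part of it is transcribed.

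That term was an alternative for all genes, since each genotype holds 1 Xist-positive library with a different replicate number. It leaves each difference as it is and changes its error. With it, 75 genes were called (0.584%), 48 higher (0.374%) and 27 lower (0.21%), among them all 11 genes above. Of the 75, 44 were also called without the Xist-positive libraries, a fit that called 110, and the shared genes are 58.7% of the former and 40.0% of the latter. Only 16 were called whichever of the 6 libraries was left out, and the count then ran from 21 to 120. The genes named from these 75 were chosen after their values were seen.

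The 16 were Treml4, Slc40a1, Nnt, Erdr1, Entpd4b, Entpd4, Olfml3, G530011O06Rik, Fam83f and Perm1 of the genes above, with Apoe, Nptx1, Ednrb, Foxred2, Trib3 and Hnrnpul2. Nptx1, a pentraxin, was at 3.89, 2.32 and 3.66 RPKM in Apoe-/- and 7.91, 6.93 and 4.24 in DKO (log2 difference 0.92, SE 0.12 with the term, limma adjusted p = 0.00055). Ednrb, an endothelin receptor, was at 1.02, 2.57 and 1.10 RPKM and at 0.509, 0.514 and 0.786 (-1.15, SE 0.15, adjusted p = 0.00094). Trib3, a target of ATF4, was at 3.55, 2.15 and 3.48 RPKM and at 7.02, 6.51 and 3.55, where the Xist-positive library was the lowest of each genotype. Asns, which makes asparagine and is another ATF4 target, had the same order, with 46.1, 25.2 and 41.1 RPKM in Apoe-/- and 63.8, 62.3 and 36.9 in DKO (0.54, SE 0.09, adjusted p = 0.0067).

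Among the 27 lower with the term were Acod1, which makes itaconate, and Hpgd, which breaks down prostaglandins. Acod1 was at 63.6, 107 and 62.2 RPKM in Apoe-/- and 42.1, 42.7 and 65.3 in DKO (log2 difference -0.61, SE 0.10 with the term, limma adjusted p = 0.0067). Hpgd was at 11.8, 20.2 and 11.5 RPKM and at 5.03, 5.61 and 12.3 (-0.98, SE 0.24, adjusted p = 0.048). In both the Xist-positive library was the highest of its genotype. Apoc2, an apolipoprotein gene beside Apoe, was lower too, at 0.137, 0.393 and 0.375 RPKM and at 0, 0.0596 and 0.0964. The neutrophil granule genes Ltf and Ngp were called higher with the term. Thus 2 of the 8 neutrophil markers tested were called, against 0.374% of all genes called higher. Of the 8 markers 7 lay above 0 (87.5%, against 66.2% of all genes), with a median log2 difference of 0.46. Ltf was at 1.20, 1.17 and 1.35 RPKM in Apoe-/- and 2.54, 2.47 and 1.74 in DKO, and Lcn2, which neutrophils also make, was called as well (adjusted p = 0.040). The part of neutrophil RNA in these calls was not tested.

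**Figure D4:**
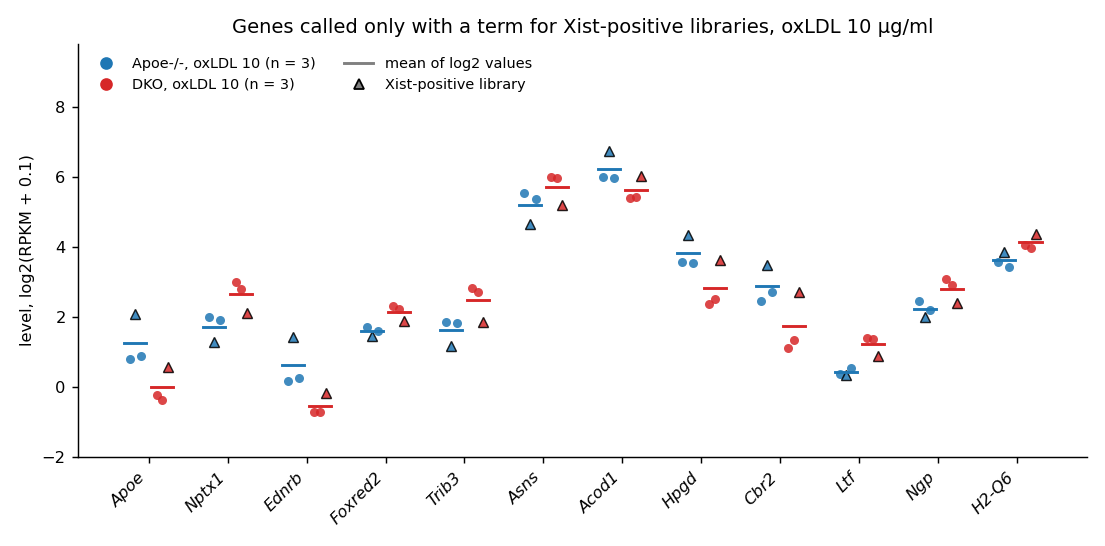
Level in log2(RPKM + 0.1) of 12 genes called only with a term for Xist-positive libraries, chosen after their values were seen, in the 3 Apoe-/- (blue) and 3 DKO (red) libraries with oxLDL 10. Triangles mark the Xist-positive library of each genotype and bars the mean of the log2 values. In Apoe, Ednrb, Acod1, Hpgd and Cbr2 the triangles lie highest within their genotype, and in Nptx1, Trib3, Asns and Ltf lowest.

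Libraries of the genotypes did not overlap in 1153 genes higher in DKO (8.98%) and 401 lower (3.12%). At an unadjusted p under 0.05 there were 1252 genes, 1011 higher and 241 lower (80.8% higher). After rescaling by the median ratio, which moved the median of all genes by -0.05, there were 1397, 723 higher and 674 lower (51.8% higher), so this excess of higher genes depends on the scaling. Among genes without a call but with no overlap and at least 1 RPKM, Hmgb2, a chromatin protein of dividing cells, was nearest the threshold, at 58.0, 54.3 and 48.7 RPKM in Apoe-/- and 40.3, 41.8 and 39.6 in DKO (log2 difference -0.40, SE 0.07, limma adjusted p = 0.051). Efcab7, which acts in hedgehog signalling at the cilium, followed at 0.799, 0.351 and 0.620 RPKM and at 1.77, 2.06 and 1.55 (SE 0.28 on the log2 scale, adjusted p = 0.057). The next 8 higher genes, from Uchl1, Enc1, Ikbkg, Dner and Ets1 to Zfp932, Carmil1 and Hnrnpul2, had differences of 0.28 to 0.66. Gas6, a ligand of the engulfment receptor MERTK, was at 68.2 to 81.6 RPKM in Apoe-/- and 52.6 to 55.0 in DKO (-0.44, SE 0.11, limma adjusted p = 0.27).

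Pathway lists were then read against all genes. Of the 20 lists, 5 held a called gene, 6 called genes in all, and 15 held 0 by limma, with 0 to 8 genes each at an unadjusted p under 0.05. List medians ran from -0.07 to 0.28, against 0.05 for all genes. The highest median, 0.28, was that of the integrated stress response, where 17 of 19 genes lay above 0 (89.5%, against 66.2% of all genes). Of them 0 were called by limma, 26.3% had an unadjusted p under 0.05 against 9.75% of all genes, and 1 (Atf4) had no overlap (5.26%, against 8.98% higher over all genes). After rescaling by the median ratio 17 of 19 still lay above 0, against 49.7% of all genes. Its genes with the smallest p were Ddit3, which encodes CHOP, at 16.9, 15.5 and 14.5 RPKM in Apoe-/- and 29.3, 29.9 and 16.5 in DKO (0.64, SE 0.23, limma adjusted p = 0.45), and Trib3 and Aldh18a1. In all of these the Xist-positive DKO library lay nearest the Apoe-/- libraries.

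In the interferon list 26 of 32 genes lay above 0 (81.2%; 68.8% after rescaling) with a median of 0.12, 0 were called and 3 had an unadjusted p under 0.05. Genotypes did not overlap, with DKO higher, in 10 of them (31.2%, against 8.98% of all genes). Oas3, a sensor of viral RNA, was at 19.3, 18.3 and 19.4 RPKM in Apoe-/- and 25.6, 23.3 and 21.4 in DKO (0.30, SE 0.10, limma adjusted p = 0.42). Mx1 was at 3.90 to 4.61 RPKM and 5.38 to 6.07 RPKM (0.47, SE 0.19, adjusted p = 0.48), and Irf7, the factor that drives these genes, at 31.8 to 33.4 and 38.2 to 44.8 (0.31, SE 0.14, adjusted p = 0.50). Toll-like receptors and their signalling genes had a median of -0.04, with 0 called and 0 with an unadjusted p under 0.05. Genotypes did not overlap, with DKO lower, in 4 of 22 (18.2%, against 3.12% of all genes). Above 0 lay 7 of 22 (31.8%, against 66.2% of all genes), and 4 of 22 after rescaling (18.2%, against 49.7%). Tlr7, an endosomal sensor of RNA, was at 34.6, 38.1 and 34.2 RPKM in Apoe-/- and 30.7, 32.0 and 31.7 in DKO (-0.18, SE 0.09, adjusted p = 0.54). Cytokines and chemokines had a median of 0.10, with 0 of 28 called. Ccl7 was the highest of them at 1.12 but ranged from 9.20 to 61.6 RPKM within Apoe-/- and from 22.5 to 122 within DKO.

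Lipid lists had medians close to that of all genes. Genes of LXR and cholesterol efflux had a median of -0.01 in 19 tested, with Apoc2 and Apoe the lowest. Of the 19, 3 did not overlap with DKO lower (15.8%, against 3.12% of all genes), and 1 with DKO higher (5.26%, against 8.98%). Cholesterol synthesis had a median of -0.01 in 23 genes tested. Fatty acid synthesis had 0.05, uptake of modified lipoproteins -0.01 and lipid droplets with PPAR targets 0.07. After rescaling, the shares above 0 were 31.6%, 39.1%, 50.0%, 30.8% and 61.9% in that order, against 49.7% of all genes. Lrp1, an uptake receptor, was at 52.7 to 73.5 RPKM and 79.0 to 84.2 (0.34, SE 0.11, adjusted p = 0.40), and Pparg at 7.04 to 7.70 and 8.03 to 9.36 (0.24, SE 0.10, adjusted p = 0.49). None of these lists held a called gene, and they had 1 to 3 genes each at an unadjusted p under 0.05. The lysosome list had a median of 0.00 with 0 of 25 genes called and 0 at an unadjusted p under 0.05. Of its genes 52.0% lay above 0 (against 66.2% of all genes), and after rescaling 4 of 25 did (16.0%, against 49.7%).

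NRF2 targets had a median of 0.11 and glycolysis 0.07, with 0 of 23 and 0 of 31 genes called. Of the NRF2 targets 19 of 23 lay above 0 (82.6%, against 66.2% of all genes), and 73.9% after rescaling (against 49.7%). They had 2 genes at an unadjusted p under 0.05 (8.7%, against 9.75%). In the glycolysis list 67.7% lay above 0 (54.8% after rescaling), with 7 of 31 at an unadjusted p under 0.05 (22.6%). There 12.9% did not overlap with DKO higher, against 8.98% of all genes. Cell cycle genes had a median of 0.15, with 21 of 25 above 0 (84.0%, against 66.2% of all genes), 8 at an unadjusted p under 0.05 (32.0%, against 9.75%) and 0 called. After rescaling 17 of 25 lay above 0 (68.0%, against 49.7%). Ccnb2, a mitotic cyclin, went the other way, at 67.4 to 68.8 RPKM in Apoe-/- and 58.9 to 60.5 in DKO (-0.19, SE 0.06, limma adjusted p = 0.37). Apoptosis had a median of -0.01 and polarization with antigen presentation -0.02. Matrix genes had -0.07, where Olfml3 was called, and Mmp19, a matrix protease, was at 8.27 to 10.4 RPKM and 10.9 to 13.1 (0.34, SE 0.11, adjusted p = 0.40).

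**Figure D5:**
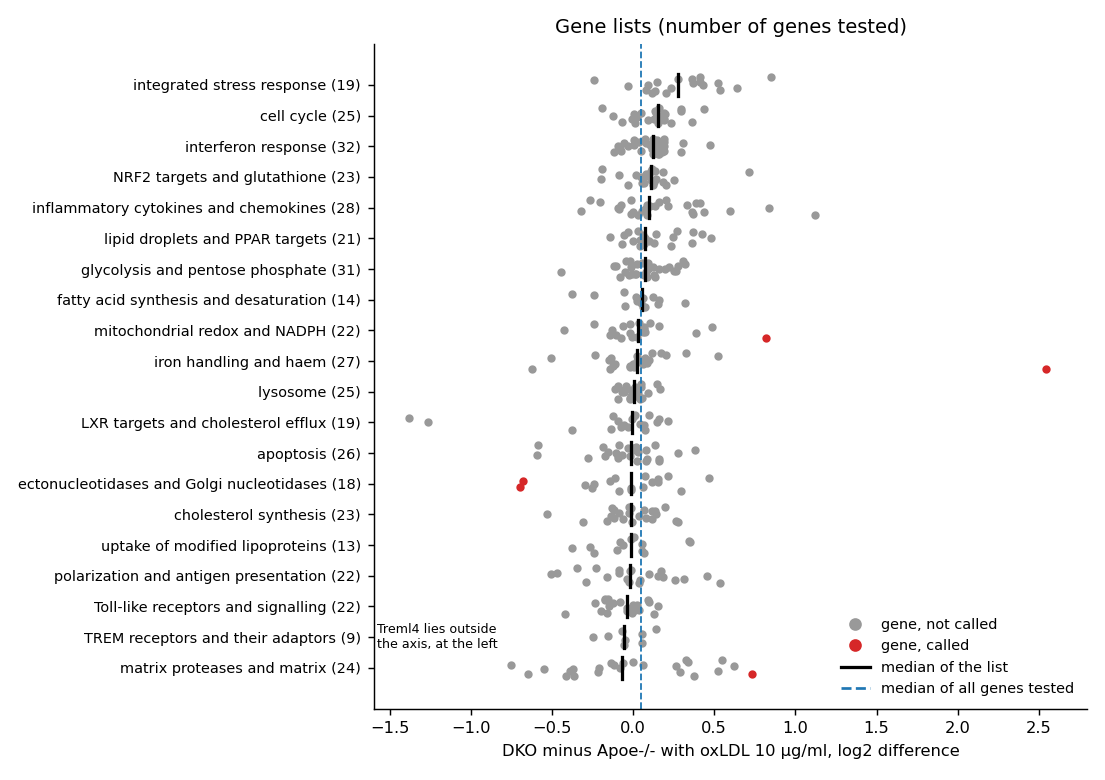
Log2 difference between DKO and Apoe-/- with oxLDL 10 for each tested gene (points, red where called) of 20 pathway lists, with the number of genes tested in brackets. Black bars are list medians and the dashed line is the median of all genes, 0.05. The medians lie between -0.07 and 0.28, and Treml4, at -5.09, is off the axis.

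The study drew attention to 27 genes for oxLDL 60, many of them solute carriers, and these were read at oxLDL 10. Since they were chosen on libraries of this series, they are not independent evidence. Of the 27, 11 passed the filter, and Slc40a1 was the 1 called. Of the tested genes, 5 did not overlap with DKO higher (45.5%, against 8.98% of all genes) and 1, Slc18b1, with DKO lower (9.09%, against 3.12%). Xk was at 0.330 to 0.405 RPKM in Apoe-/- and 0.516 to 0.592 in DKO (0.44, SE 0.14, limma adjusted p = 0.37), and Adra1a, an adrenergic receptor, at 1.03 to 1.58 and 1.42 to 3.10 (0.74, SE 0.30, adjusted p = 0.49). Each of the 16 genes that did not pass stood under 0.1 RPKM in all 6 libraries, close to the level of a few reads.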

How the data were processed

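RNA-seq was done by the study on 18 libraries of BMDM. Per the submitters' processing notes the authors used STAR and the genome build mm10, and they deposited 1 table of RPKM per gene symbol, a value scaled to gene length and to the reads of each library. Counting settings are not given in the sources used here. Groups came from the labels. Values were analysed as log2(RPKM + 0.1) with limma 3.58.1 in R 4.3.3 (6 group means, eBayes with trend, Benjamini-Hochberg adjustment), for genes with 0.1 RPKM in at least 3 libraries, after a test on simulated data. Since RPKM are scaled to each library, very abundant RNAs lower all other values of it.

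The members and gene lists were chosen with earlier results of these data known. Genes named were Treml4, Apoe, every called gene, uncalled genes with at least 1 RPKM, no overlap and the smallest p (10 each way), up to 4 genes per list, and genes near Treml4, and others are said to be chosen later. Depth came from the steps of low values and GENCODE M21 lengths. Limits in reads cover counting error only, since copies made by PCR are not independent molecules. Within a genotype all 18 pairs of same-numbered libraries correlated in their deviations from group means (0.18 to 0.69), so number within genotype served as the block. Of 36 differently numbered pairs 11 also exceeded 0.1 (-0.61 to 0.29), and DKO replicates 1 and 2 correlated across numbers (0.19 to 0.29) about as within them (0.19 to 0.33), so that a number marks 1 animal is not shown. Between genotypes 1 of 3 pairs exceeded 0.1 (-0.36 to 0.21), so numbers were not paired. Positions are from GENCODE M21 and RefSeq. Python 3.11.15 served for tables and plots. Some genes are not reported here.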

Additional observations from a re-analysis of the deposited data

How the results depend on the processing

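The 11 calls at oxLDL 10 were 9 to 12 with another pseudocount, filter, scaling, limit on fold or variance trend, and 8 to 13 without each library in turn. They were 4 with only the 6 libraries compared, 75 with a term for Xist-positive libraries and 110 without these libraries. Among alternatives chosen after seeing the data, that term gave 44 with only the 6 libraries and 84 with genotype and number as a random block. With that replicate block alone there were 11, and with a block for numbers shared by both genotypes in 6 libraries 2 (Treml4 and Slc40a1). Between oxLDL 10 and untreated the genotype effect kept 0 calls. Between oxLDL 60 and 10 it gave 1 with pseudocount 1 (Treml4), 2 without Xist-positive libraries (Mir703 and Hspa1b) and 2 with that block, and 0 without each library in turn. Over 229 alternatives of the 11 genes the sign was always kept and 32 lost the call. The cause of these changes was not tested. The median 95% interval of genes above 1 RPKM was 0.19 on either side before adjustment, and a call needed at least 0.49 on the log2 scale, so smaller differences could not be called.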

Other observations

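Small nucleolar RNA genes, whose RNAs guide chemical modification of ribosomal RNA, made up 20 of the 52 genes with a log2 difference of at least 1 in size at oxLDL 10, 18 of them lower in DKO. This group was chosen after the largest differences were seen, so it has no test. Of 61 such genes tested, 50 lay below 0 and 9 above, while 66.2% of all genes tested lay above 0. Their median was -0.54 (median SE 0.68), against 0.05 for protein-coding genes, and limma called 0 of the 61. The same genes had a median of 0.21 untreated and 0.22 with oxLDL 60. The median level of these genes was 0.287, 1.16 and 0.398 RPKM in Apoe-/- replicates 1 to 3 and 0.344, 0.296 and 0.488 RPKM in DKO. By that median only Apoe-/- replicate 2 lay above all 3 DKO libraries. Their summed level was 646, 1163 and 549 RPKM in Apoe-/- replicates 1 to 3 and 493, 498 and 711 RPKM in DKO. In both measures the Xist-positive library was the highest of each genotype. These were the libraries that also carried Xist, whose part in the values was not tested.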
